A study of Homo sapiens with 8 samples.

Results

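GC-AG introns begin with GC at the 5′ splice site in place of the usual GT and end with AG. The 3373 annotated GC-AG introns described here were every junction that the aligner gave this motif and marked as annotated in any of the 8 libraries. They made up 1.39% of the 242597 annotated junctions seen, of which 238393 were GT-AG, and all junctions seen, annotated or not, numbered 654181. The cells were HEK293, an established human embryonic kidney line. In 4 libraries, replicates 13 to 16, they had been treated with LMI070 (branaplam) at 25 nM. In the other 4, replicates 9 to 12, they had received the solvent dimethyl sulfoxide (DMSO). Stranded libraries were made after removal of ribosomal RNA, and the measured value is the number of reads that cross each junction. The labels give no length of treatment and do not tell cultures apart from repeat preparations, and both groups are the same line with no other agent named.

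The 5′ splice site is first read by base pairing with the RNA of the U1 snRNP, and later with that of U6. A C in the second intron position breaks a base pair that a T would form, and GC sites are known to carry a stretch around it that is otherwise a close match to U1. They are spliced by the major spliceosome, like GT-AG introns, and many serve as alternative 5′ splice sites. LMI070 is known to promote the pairing of U1 with certain weak 5′ splice sites, above all those whose exon ends in GA. The comparison asked whether use of the GC sites differed between LMI070 and DMSO cells.

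The sequences of the GC sites with the most reads show the stretch that the spliceosome meets. Each line gives the last 10 exon bases, the GC in capitals and the next 8 intron bases, read 5′ to 3′ on the transcript strand from GENCODE 29 transcripts (GRCh38). Only transcripts whose exons run across a site hold these bases.
RACK1, chr5:181241640-181242173: atctcacaacGCaagtagct
RPS27A, chr2:55233418-55234118: gataaggaagGCaagtagta
BTF3, chr5:73502602-73502915: tattgaagagGCaagtatca
HNRNPU, chr1:244856159-244856456: aaaatgaaagGCatggaatt
HNRNPU, chr1:244855609-244855903: agaggaggagGCaagttaat
HSPD1, chr2:197494251-197494656: cacagtaaagGCaagtgtgt
In 5 of these 6 sites the GC is followed by the letters AAG, and in 5 of 6 the exon ends in AG. RACK1, whose exon ends in AC, and the upstream HNRNPU intron, with ATG after the GC, are the exceptions.

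The 3373 introns had 3067 distinct GC 5′ splice sites. Intron bases could be read for 1059 of them, all of which had GC, and all 1093 3′ splice sites that could be read ended in AG. The exon ended in AG at 82.4% of the GC sites, against 56.0% of the GT sites of annotated GT-AG introns. At the sites with intron bases, G stood in the last exon position in 93.1% of GC sites and 78.9% of GT sites, and A before it in 79.5% and 60.0%. In the third intron position A stood in 65.0% of GC sites and 51.2% of GT sites, while G, the other common base there, stood in 12.1% and 39.1%. G in the fifth position was about equally frequent, at 74.9% and 72.7%. An exon end in AG with AAGT after the dinucleotide occurred in 159 GC sites (15.01%), against 538 GT sites (1.52%). These shares describe the sites and carry no test. Intron bases were at hand only where another transcript retains the stretch in an exon, so the 1059 sites are no random sample. The same holds for the GT sites, of which 35461 of 199115 had intron bases.

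Unique reads per library over all junctions numbered 20369466 to 36131054 in LMI070 and 21975349 to 26716014 in DMSO. Reads in GC-AG introns numbered 145283 to 260894 in LMI070 and 157560 to 191185 in DMSO. LMI070 replicates 13 and 16 and DMSO replicates 11 and 12 ran in lane 7, the others in lane 8, and the LMI070 libraries of the lanes stood apart. Over annotated junctions with at least 20 reads, the chi-square per degree of freedom was 1.13 and 1.74 for LMI070 pairs within a lane and 2.06 to 2.62 for pairs across lanes. For DMSO it was 1.15 and 1.81 within a lane and 1.66 to 2.02 across. All 8 HEK293 background genes listed were detected, with summed levels of 95.4 to 100.3 CPM in LMI070 (spliced reads scaled to library total and TMM factor) and 93.0 to 99.1 in DMSO. Of the fibroblast markers 2 of 5 were detected, with sums of 19.6 to 29.3 CPM in LMI070 and 17.1 to 21.2 in DMSO; those of blood, keratinising epithelium and hepatocytes summed to at most 0.811 CPM, and HBB was at 0.

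Of the 3373 introns, 3151 had at least 1 uniquely mapped read and 222 had multiply mapped reads only. At least 20 unique reads over the 8 libraries were reached by 1510 (44.8%), against 66.2% of GT-AG introns, and the median was 13 reads, against 108. Every library held a unique read of 1468 of them. Another 386 had unique reads in LMI070 libraries only, with at most 8 reads each, and 305 in DMSO libraries only, with at most 6. The same counts were not made for GT-AG introns or for all junctions, and the deepest library was an LMI070 library. The 386 and 305 thus carry no result about GC-AG introns. The GC-AG introns were also somewhat shorter, with a median of 1365 nt (interquartile range 454 to 4181), against 1823 nt (593 to 5397). A protein-coding transcript contained 63.1% of them, against 81.2% of GT-AG introns. They lay in 2741 genes, of which 503 had at least 2 and none had more than 8.

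Reads were concentrated in a few introns. Of the 1434961 unique reads, the 10 introns with the most reads held 23.0%. The highest count was in intron 2 of 7 of RACK1, which encodes a scaffold protein on the small ribosomal subunit. It had 14530, 10475, 8280 and 8186 reads in LMI070 replicates 13 to 16, and 8804, 10446, 10690 and 8598 in DMSO replicates 9 to 12. Replicate 13, the deepest library, had the highest count. Intron 3 of 5 of RPS27A, which encodes a fusion of ubiquitin and a ribosomal protein, had 48224 reads in all. Intron 3 of 5 of BTF3, a subunit of the complex that binds nascent chains at the ribosome, had 32998. The remaining places among the first 8 were held by 2 introns of PKM, the glycolytic pyruvate kinase (introns 7 and 8 of 11, chr15:72207278-72208620 with 32023 and chr15:72206881-72207126 with 25154 reads), 2 of HNRNPU, a nuclear RNA-binding protein (introns 10 and 11 of 13, 27198 and 26079 reads), and 1 of HSPD1, the mitochondrial chaperonin (intron 5 of 11, 27048 reads). All 8 lay within the coding region.

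Usage is the share of an intron's reads among the reads of all junctions on its strand that share either splice site with it. Of the 1510 introns with at least 20 reads, 373 had no competing read at all, 178 had fewer than 10 reads at their sites in some library, and 959 were tested. Mean usage of the 959 was 95% or more in 47.3%, 50% to 95% in 15.95%, 5% to 50% in 21.5% and under 5% in 15.2%. Of 116265 tested GT-AG introns, 61.6%, 18.4%, 12.2% and 7.80% fell in these classes. Introns used at under 50% thus took a larger share of GC-AG than of GT-AG introns, a difference that was not tested. GC-AG introns used at 95% or more had a median of 1045 reads and lay in a protein-coding transcript in 98.9% of cases; those under 5% had a median of 33 reads and did so in 59.6%. Where intron bases could be read, AAG followed the GC in 72.4% of 105 introns used at 95% or more and in 80.0% of 55 at 50% to 95%. It followed the GC in 60.0% of 85 introns at 5% to 50%, 54.5% of 55 under 5% and 33.6% of 110 with no competing read. For GT-AG introns the share lay between 18.3% and 24.3% in all 5 classes. Differences between these shares were not tested.

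**Figure D1:**
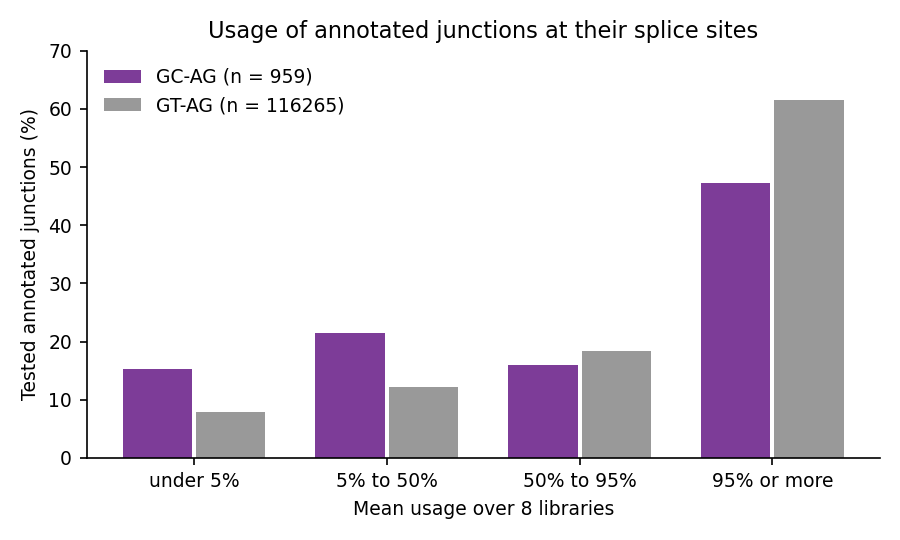
Share of tested annotated junctions (y axis, percent) in 4 classes of mean usage over the 8 libraries (x axis), for 959 GC-AG and 116265 GT-AG introns; bars start at 0. The class under 5% held 15.2% of GC-AG and 7.80% of GT-AG introns, and the class of 95% or more 47.3% and 61.6%.

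Many GC 5′ splice sites shared a 3′ splice site with a GT 5′ splice site. A competing GT-AG junction with at least 20 reads was found for 480 of the 1510 introns. The GC-AG junction had more reads than its strongest GT-AG competitor in 172 of them and fewer in 307. In 749 such pairs, 100 had both 5′ splice sites within 30 nt, and in 66 of these the GT lay downstream. A single distance stood out: in 30 pairs the GT lay exactly 4 nt downstream of the GC. These were 30 of 100 pairs, against 174 of 2522 pairs of GT sites of the same kind that lay 4 nt apart (6.90%).

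**Figure D2:**
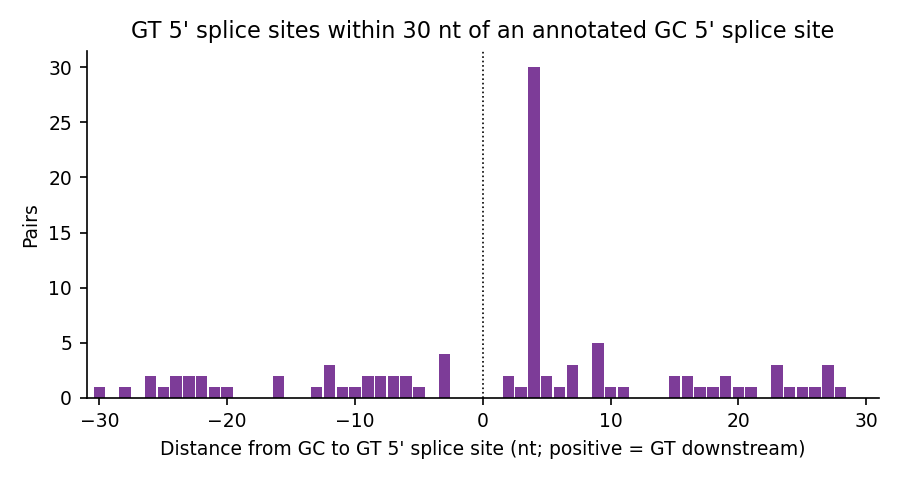
Number of pairs (y axis) by the distance in nt from an annotated GC 5′ splice site to a GT 5′ splice site that shares its 3′ splice site (x axis; positive where the GT lies downstream; at least 20 reads for both junctions). The bar at 4 nt holds 30 of the 100 pairs within 30 nt; the next highest, at 9 nt, holds 5.

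At a distance of 4 nt the G and T in the fifth and sixth positions of the GC intron are the GT of the other site. The following lines show such pairs, chosen to span those in which either site had most reads. They give the last 3 exon bases before the GC, with both GC and GT in capitals.
RACK1: aacGCaaGTagct
METTL23: gagGCaaGTatgg
FAM133B: acaGCaaGTatct
FANCA: cagGCagGTgcaa
NNT: aagGCagGTaccc
SAT2: cagGCcgGTaacc
RAD52: gagGCgcGTaagt
The exon of the GC site ends in AG in 5 of these 7, where that of the GT site would end in AA, AG, CG or GC. Splicing at the GT adds 4 nt to the exon, which shifts the reading frame in coding sequence.

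Over the 30 pairs the GC site had more reads in 15, the GT site in 14, and both had 38 in NNT, which encodes a mitochondrial proton-pumping transhydrogenase. The GT junction was annotated too in 28. RACK1 was at one end, with 80009 reads from the GC and 61 from the GT. METTL23, a methyltransferase gene, had 1012 and 27, and FAM133B had 1075 and 23. In FANCA, a subunit of the Fanconi anemia core complex, the GC had 605 and the GT 107 reads. PRNP, the prion protein gene, was close to even in the 5′ UTR, with 277 and 371. At the other end TALDO1, the transaldolase of the pentose phosphate pathway, had 130 and 6155, SAT2, an acetyltransferase gene, 111 and 1140, and RAD52, a recombination factor, 22 and 89.

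The share of annotated junction reads that lay in GC-AG introns differed between the groups by less than the spread between replicates. It was 0.729%, 0.722%, 0.720% and 0.725% in LMI070 replicates 13 to 16, and 0.723%, 0.722%, 0.724% and 0.730% in DMSO replicates 9 to 12. The groups overlapped almost wholly, at 0.724% ± 0.00393 in LMI070 and 0.725% ± 0.00360 in DMSO (SD, n = 4 each).

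No GC-AG intron changed in usage by the call rule, which asks for an adjusted p under 0.05 and at least 10 percentage points (edgeR's quasi-likelihood test, Benjamini-Hochberg adjustment over all 129495 tested junctions). The count was 0 of 959, where 0.0664% of all tested junctions were called. At that share 0.637 calls would fall on 959 junctions, so the 0 does not set GC-AG introns apart. The smallest adjusted p of a GC-AG intron was 0.977 by edgeR. At an unadjusted p under 0.05 stood 29 of them, 14 higher and 15 lower in LMI070, which is 3.02%, against 3.1% of all junctions; DESeq2 made 0 calls and had 15 at that level. The median of the changes in usage, LMI070 minus DMSO, was −0.00385 percentage points over the 959 introns and −0.00795 over all junctions. The median size of the change was 0.621 points, against 0.594 over all junctions. Its size can be set against the replicates: the median SD of usage was 1.31 points in LMI070 and 1.33 in DMSO. For 163 introns (16.997%) the 95% interval of the change in odds of use lay within 1 on the log2 scale in either direction; for the rest a larger change was not excluded at this depth, a median of 115 reads at the sites per library.

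**Figure D3:**
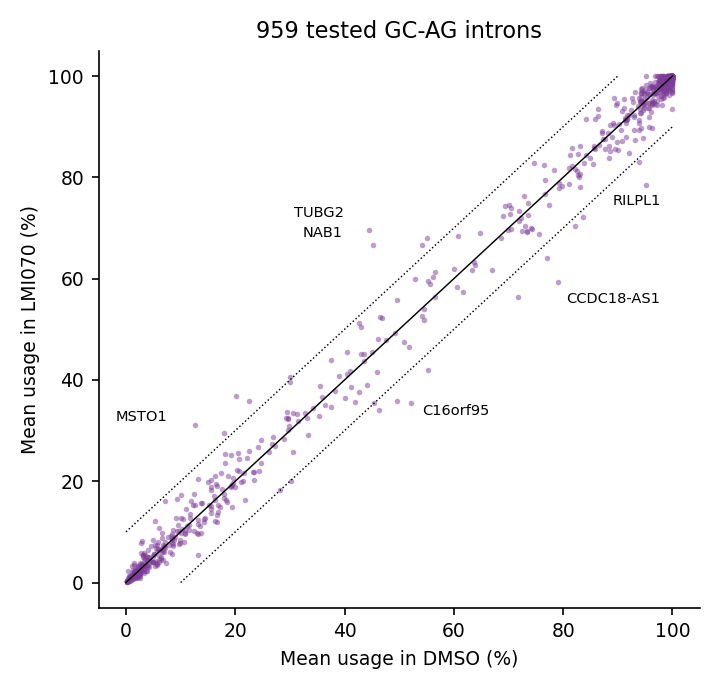
Mean usage in LMI070 (y axis, percent, 4 libraries) against mean usage in DMSO (x axis, percent, 4 libraries) for the 959 tested GC-AG introns, 1 point each. The solid line marks equal usage and the dotted lines a difference of 10 points; the few points beyond them, among them TUBG2 at 69.6% against 44.5%, did not pass the test.

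The introns with the most reads were used almost wholly, with few competing reads. RACK1 usage was 99.8% ± 0.0310 in LMI070 and 99.9% ± 0.0417 in DMSO, with a change of −0.27 in the log2 odds (95% interval −0.84 to 0.31). In HSPD1 it was 99.3% ± 0.0911 in LMI070 and 99.5% ± 0.168 in DMSO, with a change of −0.45 in the log2 odds (95% interval −0.97 to 0.08). The GT site 4 nt downstream in RACK1 drew 39 reads over the LMI070 libraries and 22 over the DMSO libraries, beside 41471 and 38538 from the GC. Neither intron's change passed the test (adjusted p = 0.977 in edgeR for both).

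A change of at least 10 points in mean usage was seen in 21 of the 959 introns (2.19%), against 1.10% of all tested junctions, and none of the 21 passed the test. The difference between these shares was not tested. The largest rise was in intron 5 of 10 of TUBG2, a gamma-tubulin gene (chr17:42663053-42663376). Its usage was 65.2%, 72.4%, 63.2% and 77.8% in LMI070 and 41.2%, 52.6%, 44.0% and 40% in DMSO. The groups did not overlap, yet they rest on 77 of 112 reads in LMI070 and 36 of 81 in DMSO (unadjusted p = 0.0140, adjusted p = 0.977 in edgeR's fit over all junctions). The competing GT site lay upstream, at −2345 nt from the GC. In NAB1, a corepressor of EGR transcription factors, usage was 66.5% ± 15.02 in LMI070 and 45.2% ± 10.5 in DMSO. In MSTO1, linked to mitochondrial distribution, it was 31.01% ± 5.67 in LMI070 and 12.6% ± 8.76 in DMSO, with a GT site 25 nt upstream that had 161 reads. AIG1, TMCC1 and PCNX2 completed the 6 largest rises.

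The largest falls were of similar size. CCDC18-AS1, an antisense transcript, had a usage of 59.3% ± 15.6 in LMI070 and 79.0% ± 3.66 in DMSO. C16orf95, 1 of the pairs 4 nt apart, had 35.5% ± 14.1 in LMI070 and 52.2% ± 8.96 in DMSO. RILPL1, which encodes a Rab effector (chr12:123484273-123485632, intron 5 of 7), had 73.7%, 71.4%, 84.2% and 85.0% in LMI070 and 87.5%, 93.3%, 100% and 100% in DMSO. Its groups did not overlap, on 57 of 72 reads in LMI070 and 63 of 66 in DMSO. RGS5, TRO and NT5M completed the list, and each of these 12 introns had an adjusted p of 0.977 in edgeR's fit. Smaller shifts had the lowest unadjusted p. In ARHGEF12, a guanine nucleotide exchange factor gene (chr11:120420852-120421802), 1701 of 1709 reads used the GC-AG intron in LMI070 and 1698 of 1698 in DMSO. In LARP4, an RNA-binding protein gene (chr12:50474108-50475525), 10 of 1093 reads did so in LMI070 and 28 of 1048 in DMSO. Their site sequences are of the common type where they can be read, as in LARP4: gccatcgaggGCaagtactg

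The choice between a GC and other 5′ splice sites is seen most directly as the share of reads at the 3′ splice site. Of 885 GC-AG introns tested in this way 0 were called, where 0.0441% of 92987 junctions were called, and the smallest adjusted p was 0.936 (edgeR). Unadjusted p under 0.05 was reached by 23 (2.599%), against 1.93% of all; DESeq2 made 0 calls, with 18 at that level. The 10 introns in which both the GC and a competing GT site had most reads are described here, with the GT site at any distance. HMGB2, a chromatin protein gene, was spliced mostly from its GC site in the 5′ UTR (chr4:173333670-173334271), with a GT site 26 nt downstream: ctcgcaccagGCaagaatac
Its share was 85.5%, 84.3%, 85.0% and 87.6% in LMI070 and 85.5%, 86.7%, 86.5% and 84.8% in DMSO. The groups overlap, and the change in log2 odds was −0.05 (95% interval −0.28 to 0.18).

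In the other 9 the GT site was the major form. CSNK1A1, which encodes casein kinase 1 alpha, used the GC site of its last intron (chr5:149496861-149505482, GT 36 nt downstream) for 45.5% ± 3.11 of reads in LMI070 and 45.1% ± 1.62 in DMSO. IRF2BP2, a transcriptional corepressor gene (GT 48 nt downstream), had 38.7% ± 6.13 in LMI070 and 41.1% ± 1.32 in DMSO. UBE2D3, a ubiquitin-conjugating enzyme gene (GT 165 nt downstream), had 34.9%, 30.3%, 28.2% and 37.1% in LMI070 and 30%, 29.8%, 30.9% and 28.7% in DMSO. Replicates 13 and 16, the LMI070 libraries of lane 7, were higher than every DMSO library, and replicate 15 was lower than all of them. U2AF2, the factor that binds the polypyrimidine tract of 3′ splice sites, has its GT 12 nt upstream of the GC (chr19:55669182-55669443), and had 19.9% ± 1.80 in LMI070 and 21.0% ± 0.653 in DMSO. The 12 nt between both sites is a multiple of 3. MAZ, a zinc finger factor gene, had 11.5% ± 2.83 in LMI070 and 13.2% ± 1.55 in DMSO. MRPL51, of the large mitochondrial ribosomal subunit (GT 659 nt downstream), had 7.94% ± 1.21 in LMI070 and 7.16% ± 0.481 in DMSO.

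CHID1, ECHDC1 and TUSC3 had shares of 33.4%, 29.2% and 23.2% in LMI070, against 32.8%, 29.9% and 23.1% in DMSO. The 95% intervals of the change in log2 odds for the 10 introns were all within 1: the widest, that of IRF2BP2, ran from −0.50 to 0.28. In these genes a change of odds by 1 on the log2 scale would have been outside the interval. Of the pairs 4 nt apart, FANCA had a usage of 78.4% ± 5.69 in LMI070 and 79.9% ± 4.37 in DMSO, and PRNP had 41.7% ± 1.97 in LMI070 and 41.0% ± 4.61 in DMSO. TALDO1 had 2.16% ± 0.550 in LMI070 and 1.93% ± 0.400 in DMSO. The lowest unadjusted p among them belonged to TBCK, where usage was 83.0% ± 7.18 in LMI070 and 93.9% ± 3.31 in DMSO (unadjusted p = 0.0162, adjusted p = 0.977 in edgeR's fit over all junctions).

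**Figure D4:**
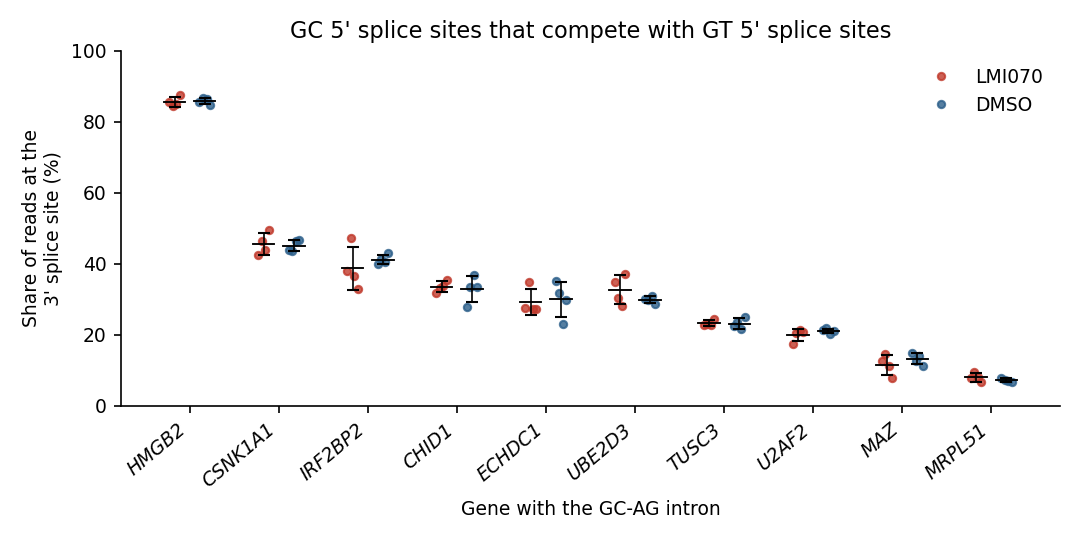
Share of reads at the shared 3′ splice site that come from the GC 5′ splice site (y axis, percent) for the 10 GC-AG introns with the most reads in both competing forms (x axis); points are libraries, LMI070 left of DMSO, with the mean and SD of 4. HMGB2 lies at 85.6% and 85.9% and MRPL51 at 7.94% and 7.16%; in each gene the ranges of LMI070 and DMSO overlap.

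GC sites whose exon ends in GA are the kind closest to the sites at which LMI070 is known to act. They were rare, 12 of the GC sites with a known exon end (0.392%), against 1.61% of GT sites. They gave 14 introns, 6 of which had at least 20 reads. Sequences of 2 of these sites are shown.
FBXW5, chr9:136941685-136942099: ggcgccaagaGCaagtacct
SEMA6C, chr1:151144435-151146432: gaatcctggaGCaagtaccc
Both continue with AAGTA after the GC. FBXW5, an F-box protein gene, used the GC site for 3.38% ± 1.07 of reads in LMI070 and 5.64% ± 3.23 in DMSO. Its libraries overlapped, at 1.99% to 4.52% in LMI070 and 3.31% to 10.4% in DMSO. AKT2, a kinase of insulin signalling, had its intron of 19697 nt in the 5′ UTR at 4.02%, 2.33%, 4.85% and 2.14% in LMI070 and 1.41%, 0.526%, 1.16% and 1.57% in DMSO. The groups did not overlap, on 20 reads in LMI070 and 7 in DMSO (unadjusted p = 0.0317, adjusted p = 0.977 in edgeR). The 2 ZNF692 introns, which start at the same GC site, had 69.2% ± 7.32 and 9.79% ± 4.86 in LMI070, against 73.4% ± 11.4 and 6.65% ± 6.67 in DMSO. SEMA6C had too few reads at its sites for the test. None of the 5 that were tested passed.

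Introns with no competing junction cannot be judged by usage, so each GC-AG intron was also set against the introns next to it in GENCODE 29 transcripts. This comparison was chosen after the data were seen. It took in 1319 GC-AG introns and called 0, where 0.00754% of 145980 junctions were called; the smallest adjusted p was 0.761 (edgeR). Unadjusted p under 0.05 was reached by 52 (3.94%), against 3.92% of all junctions, and DESeq2 made 0 calls with 20 at that level. Here the 95% interval lay within 1 on the log2 scale for 1032 (78.2%), against 86.6% of all junctions. The downstream HNRNPU intron held 23.1% ± 0.838 of the reads of itself and its neighbours in LMI070 and 22.9% ± 1.02 in DMSO. That of PKM intron 8 was 32.2% ± 0.719 in LMI070 and 32.2% ± 0.919 in DMSO. For RPS27A the share was 23.7% ± 0.0674 in LMI070 and 23.9% ± 0.302 in DMSO.

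Some genes held several GC-AG introns, and 8 in each of BRD9 and LMBR1 was the most; these genes are named after their counts were seen. In BRD9, which encodes a bromodomain subunit of a SWI/SNF complex, 6 of the 8 had at least 20 reads. Introns 11 and 3 of 15 (chr5:876213-878354 and chr5:889648-891154) were the major forms, with usages of 87.2% ± 3.41 and 84.4% ± 1.85 in LMI070, against 90.8% ± 1.71 and 84.2% ± 2.84 in DMSO. Each shares a splice site with a minor GC-AG form. The minor partner of intron 11 runs 27752 nt and had 12.7% ± 3.35 in LMI070 and 9.17% ± 1.65 in DMSO, and that of intron 3 had 14.5% ± 1.84 in LMI070 and 15.5% ± 2.37 in DMSO. In LMBR1, whose gene contains a limb enhancer of Sonic hedgehog, 6 of 8 also had at least 20 reads. Its intron 2 of 17 (chr7:156833793-156836812) had 91.2% ± 2.34 in LMI070 and 91.2% ± 3.17 in DMSO, and a GC site farther along the gene, gtaaatacagGCcagtacaa, joined 3 different 3′ splice sites. The form from that site with the most reads had 69.6% ± 10.2 in LMI070 and 69.9% ± 8.49 in DMSO. None of the tested introns of either gene passed the test.

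None of the 86 called junctions shared a 5′ splice site with a GC-AG intron. A shared 3′ splice site was found for 2, both in LINC02210, a noncoding gene, and the GC-AG intron there (chr17:45635399-45636282) had 16 reads and was below the minimum. GC-AG introns were 1.39% of annotated junctions. How many of all tested junctions share a site with them was not counted, so these counts carry no result about GC sites. Of the 60 called junctions that were annotated, 19 (31.7%) lay in genes that also hold a GC-AG intron, as did 23.3% of the 117241 annotated junctions tested; the difference was not tested. Unannotated GC-AG junctions numbered 14138, of which 71 had at least 20 reads and 0 met the conditions of the usage test.

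The level of the host genes was measured as spliced reads over all annotated junctions of a gene. Of 2745 host genes by identifier, 2265 were tested; 1 was higher and 6 were lower in LMI070 at an adjusted p under 0.05 (edgeR). These 7 are 0.309% of the host genes, where 0.126% of all 14250 tested genes were called, 0.0211% higher and 0.105% lower. An unadjusted p under 0.05 was reached by 268 (11.8%), against 10.4% of all genes, and the median log2 fold change was 0.00449 in host genes and −0.00243 in all genes. In lane 7 alone 114 of 2268 host genes were higher and 28 lower, against 529 and 137 of all 14271 genes tested. In lane 8 alone 3 of 2265 host genes were higher and 11 lower, against 10 and 37 of all 14348. Levels are relative to the library total and leave out reads at unannotated junctions. A lower level can thus mean less RNA of the gene or fewer of its reads at annotated junctions, and which applies was not tested.

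POLN, which encodes DNA polymerase nu, was the host gene that rose. Its level was 27.6, 25.9, 28.0 and 32.9 CPM in LMI070 and 18.3, 17.5, 17.7 and 19.9 CPM in DMSO, a log2 fold change of 0.63 ± 0.07 (SE; adjusted p = 9.31e-05 in edgeR). Its GC-AG intron 9 of 25 (chr4:2174752-2176265) held 4.91% of the gene's reads, with a usage of 76.4% ± 1.41 in LMI070 and 72.9% ± 6.04 in DMSO. HTT, the huntingtin gene, fell to 198, 153, 156 and 207 CPM in LMI070, against 251, 248, 258 and 256 CPM in DMSO, a log2 fold change of −0.51 ± 0.06 (SE; adjusted p = 5.35e-05 in edgeR). The LMI070 libraries formed pairs by lane, with replicates 14 and 15 of lane 8 lower than 13 and 16 of lane 7, and all were below the DMSO libraries. Its GC-AG intron 9 of 66 (chr4:3121433-3122888) had no competing read: gaacttatagGCaagttatt
It had 112, 61, 54 and 63 reads in LMI070 and 84, 102, 124 and 88 in DMSO. Set against its neighbouring introns its share was 29.2% ± 0.916 in LMI070 and 29.8% ± 0.820 in DMSO, and the groups overlapped.

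FBXO9, an F-box protein gene, fell to 100 ± 1.73 CPM in LMI070, against 132 ± 5.68 CPM in DMSO (log2 fold change −0.40 ± 0.04 SE, adjusted p = 5.35e-05 in edgeR). Its GC-AG intron 2 of 12 (chr6:53071144-53073480) had 2040 reads and a usage of 99.5% ± 0.508 in LMI070 and 98.9% ± 0.196 in DMSO. LNPK, which shapes junctions of the endoplasmic reticulum, had 64.9 ± 1.06 CPM in LMI070 and 82.1 ± 5.93 CPM in DMSO (−0.34 ± 0.05 SE). CHEK1, the checkpoint kinase gene, had 70.0 ± 2.64 CPM in LMI070 and 86.1 ± 2.24 CPM in DMSO (−0.30 ± 0.05 SE). Its GC-AG form in the 5′ UTR (chr11:125626643-125626748) was minor, at 7.86% ± 0.314 in LMI070 and 9.92% ± 3.19 in DMSO. L3MBTL2, of a polycomb-related complex, had 86.6 ± 1.10 CPM in LMI070 and 106 ± 7.10 CPM in DMSO (−0.29 ± 0.05 SE). NAE1, a subunit of the NEDD8-activating enzyme, had 382 ± 10.5 CPM in LMI070 and 450.4 ± 30.1 CPM in DMSO (−0.24 ± 0.04 SE). The GC-AG introns of CHEK1, LNPK, L3MBTL2 and NAE1 held under 0.5% of the reads of their genes, and that of NAE1 had 1 read. Calls of CHEK1, L3MBTL2 and NAE1 were lost when single libraries were left out, with adjusted p up to 0.0655, 0.122 and 0.282 in edgeR; L3MBTL2 was also lost in lane 7 alone (0.0971) and NAE1 without the lane term (0.115).

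**Figure D5:**
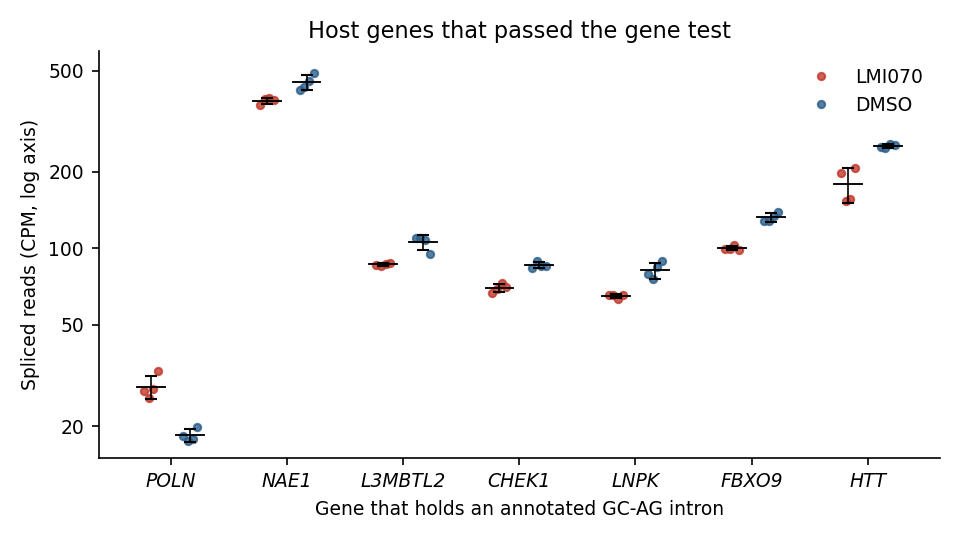
Spliced reads of the 7 host genes that passed the gene test (y axis, CPM, log axis; x axis, genes); points are libraries, LMI070 left of DMSO, with the mean and SD of 4. POLN averaged 28.6 CPM in LMI070 and 18.4 CPM in DMSO, and the other 6 were lower in LMI070.

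Genes for the machinery that reads 5′ splice sites were listed as the pathway around these introns: proteins of the U1 snRNP and the Sm ring, U1-associated factors, proteins of U5, U4/U6 and U6, and SR proteins. Of the 59 genes 58 were tested, and 0 were higher and 0 lower at an adjusted p under 0.05 (edgeR), where 0.126% of all genes were called. An unadjusted p under 0.05 was reached by 6 (10.3%), all higher in LMI070, against 10.4% of all genes. The median log2 fold change was 0.000255. PRPF8, the central U5 protein that contacts the 5′ splice site, had 1469, 1122, 1115 and 1507 CPM in LMI070 and 1119, 1134, 1157 and 1116 CPM in DMSO, a log2 fold change of 0.19 ± 0.06 (SE; adjusted p = 0.299 in edgeR). The 2 high values were those of replicates 13 and 16, both of lane 7, and the LMI070 libraries of lane 8 lay at the level of DMSO. Of the list, 8 genes hold an annotated GC-AG intron themselves, among them SART1 and DDX46, in which it carried 5.29% and 3.80% of the gene's spliced reads.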

How the data were processed

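Per the submitters' processing notes the authors aligned reads to GRCh38 with STAR 2.6.0c; alignment parameters are not given in the sources used here. The deposited junction tables hold raw counts of uniquely and of multiply mapped reads per junction, without normalization by the authors; they have no header line, and a note deposited with them names the columns. Annotation and motif are the aligner's marks; 3369 of the 3373 introns are also in GENCODE 29, which gave genes, regions and sequences. No genome sequence was used. Unique reads were used unless stated.

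Usage needed at least 20 reads of a junction, 10 reads at its sites in each library and a competing read. Paired counts (junction, competitors) were fitted in R 4.3.3 with edgeR 4.0.16, each library having its own term besides effects of lane and of LMI070 on the junction's share; DESeq2 1.42.0 was the alternative. Gene counts were scaled with TMM and filtered with filterByExpr. All fits covered the whole table, with Benjamini-Hochberg adjustment. The edgeR fits of usage, of the share at the 3′ splice site and of gene counts were tested on simulated data. The fit against neighbouring introns and the DESeq2 fits were not. Percent values have an SD over 4 libraries. Since no label names separate cultures, p-values measure the spread between these libraries. Intervals are 95%.

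Introns were named by rule: called or with adjusted p under 0.05; the 8 with most reads; the 6 largest rises and 6 largest falls; the 10 with the most reads in both competing forms; intermediate forms in the recognition list (none qualified); and host genes past the gene test. Those with a GA exon end, a GT 4 nt downstream, the smallest p, or in BRD9 and LMBR1 were added later. Members and lists were chosen with earlier results of these data known. Alternatives were another count model, filters, lane settings, multiply mapped reads, other denominators and each library left out. Some items are not reported here.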

Additional observations from a re-analysis of the deposited data

Results flagged for a closer look

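In 87 groups of 4 libraries the highest and lowest values were compared with the rest by Dixon's test at the 95% level, which chance passes in about 1 of 20 groups; 4 were found. In LMI070 the usage of the RPS27A intron was lowest in 1 library, at 99.976%, with the other 3 at 100%. The usage of the ECHDC1 intron was highest in LMI070 replicate 14, at 20.5%, with the other 3 between 14.8% and 15.1%. LNPK was lowest in LMI070 replicate 15, at 63.3 CPM, where the other 3 had 65.4 to 65.5. L3MBTL2 was lowest in DMSO replicate 12, at 95.1 CPM, where the other 3 had 108 to 110 CPM; the LMI070 libraries had 85.2 to 87.6 CPM.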

How the results depend on the processing

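The count of GC-AG introns called was 0 for usage, for the share at the 3′ splice site and against neighbouring introns under each alternative run, and the difference in the GC-AG share of reads stayed within the spread between replicates. Over 80 named introns, 1175 values under alternatives gave 0 calls. The counts of host genes moved. Higher in LMI070 were 3 by DESeq2, 48 without the filter on low counts, 114 in lane 7 alone and 3 in lane 8 alone, against 1; with single libraries left out it was 1 each time. Lower in LMI070 were 12 by DESeq2, 13 without the filter, 28 in lane 7 alone and 11 in lane 8 alone, against 6; with single libraries left out the count ran from 3 to 6, with 3 without DMSO replicate 10, LMI070 replicate 13 or LMI070 replicate 14. Over all genes, lane 7 alone called 529 higher and 137 lower and lane 8 alone 10 and 37, against 3 and 15. DESeq2 called 9 higher and 28 lower of all 14250 genes, and the run without the filter 211 and 61 of 21597. With single libraries left out, 2 to 5 of all genes were higher and 8 to 15 lower. The cause was not tested. No paired analysis was possible because LMI070 and DMSO libraries share no replicate number. Depth limits the minor forms: 1641 of the introns with unique reads had fewer than 20, and the tables hold no reads within introns, so retention was not measured.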
